A study of Mus musculus with 4 samples.

Results

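The regions described here are CTCF-bound positions on the autosomes of WEHI-231 cells that were called in both control libraries and in exactly 1 of 2 libraries from TFII-I stable knockdown cells. The peaks of all 4 deposited lists were merged wherever they overlapped by at least 1 bp, and the members were chosen by the presence of a peak in control 1, control 2 and a single knockdown library. This gave 5812 regions out of 29116 merged regions in all, and 28.7% of the 20252 autosomal regions called in both controls. Of the 5812, 4278 had their knockdown call in knockdown 1 only and 1534 in knockdown 2 only. They are named the knockdown 1-kept and the knockdown 2-kept regions. The calls in the knockdown libraries chose the members, so the number and strength of those calls are given as descriptions without a test.

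CTCF binds a long DNA motif through its zinc fingers, at insulators, at the anchors of chromatin loops and at many promoters. It stops loop extrusion by cohesin at sites in a suitable orientation, which is how it helps to fold chromosomes into domains. TFII-I, encoded by Gtf2i, is a transcription factor that acts at initiator elements and in signalling of B cells, and the study, by its title, asks whether TFII-I targets CTCF to promoters. In chromatin immunoprecipitation followed by sequencing (ChIP-seq), a peak caller reports a position only when the enrichment passes a threshold, so a site near that threshold may be listed in one library and not in its replicate.

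The data comprised 4 CTCF ChIP-seq libraries of WEHI-231, a B cell lymphoma line from a (BALB/c x NZB)F1 mouse, made with 1 commercial CTCF antibody. There were 2 libraries from control cells, labelled CT, and 2 from the knockdown cells, labelled KD, grown in the same medium. Whether the knockdown cells are 1 clone, and whether replicates came from separate cultures, is not given in the sources used here, so the spread between replicates may be technical. The degree of knockdown was not analysed here. With 2 libraries a group and 1 library behind each set of kept regions, no comparison of the sets has a replicate test, and an exact two-sided permutation test of 2 libraries against 2 cannot go below p = 0.333.

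Each list holds mm9 positions and a score that the authors gave each peak, with a lowest score of about 50 and a highest score of 3100 in every list. The control lists held 24467 and 23873 peaks and the knockdown lists 19076 and 15309. Depth is unknown and the scores of separate lists cannot be set against each other, so strength is given as the rank or the percentile by score within a list (rank 1 and the highest percentile are the strongest peak). Regions are given by position, since no mm9 sequence or annotation was used here. Intervals on shares are exact 95% Clopper-Pearson intervals and errors on differences are SEs. Both cover the counting or spread over regions of these 4 libraries, not the spread between cultures.

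The knockdown 1-kept regions outnumbered the knockdown 2-kept regions 4278 to 1534, so that 26.4% (95% Clopper-Pearson interval 25.3 to 27.6%) of the one-knockdown regions were kept in knockdown 2. As background, 77.7% of the 20252 autosomal regions called in both controls had a call in knockdown 1 and 64.1% in knockdown 2. The call was in knockdown 1 only in 21.1% and in knockdown 2 only in 7.57%. A further 11448 regions (56.5%) had a call in both knockdown libraries and 2992 (14.8%) in neither. Seen from each knockdown list, 27.2% of the control regions called in knockdown 1 were missing from knockdown 2, and 11.8% of those called in knockdown 2 were missing from knockdown 1.

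List length moved this balance. When the knockdown 1 list was limited to its 15309 strongest peaks, the length of the knockdown 2 list, 3201 regions were kept in knockdown 1 only and 2743 in knockdown 2 only. The share kept in knockdown 2 was then 46.2% (44.9 to 47.4%). The peak at that length in knockdown 1 had a score of 61.95, and 1075 of the 4278 knockdown 1-kept regions (25.1%) scored below it. With every list at that length, 1720 regions were kept in knockdown 1 only and 1201 in knockdown 2 only, a share of 41.1%.

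Members were spread over nearly the whole range of control strength, with most of them below the middle. The 20252 autosomal control regions were ordered by mean control rank and split into 10 groups of the same size. In the weakest group 35.5% of regions were members, in the third group 41.8%, in the sixth 30.4% and in the strongest 5.28%. The median of the mean control score was 64.0 in the weakest group and 243 in the strongest. Regions called in neither knockdown library made up 48.7% of the weakest and 0.247% of the strongest group, and regions called in both made up 15.8% and 94.5%.

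The share of members kept in knockdown 2 was largest among the weakest control regions. It was 36.8% (33.3 to 40.4%) in the weakest group, with 265 members against 455 kept in knockdown 1, 26.6% (23.4 to 30.0%) in the fifth group and 14.02% (8.06 to 22.1%) in the strongest, with 15 against 92. With the knockdown 1 list at the length of knockdown 2, the share ran from 57.8% (53.9 to 61.7%) to 31.8% (23.9 to 40.6%). The strongest control regions were thus missing more often from knockdown 2 than from knockdown 1 with both settings, while among the weakest the order of the libraries depended on the length of the knockdown 1 list.

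**Figure D1:**
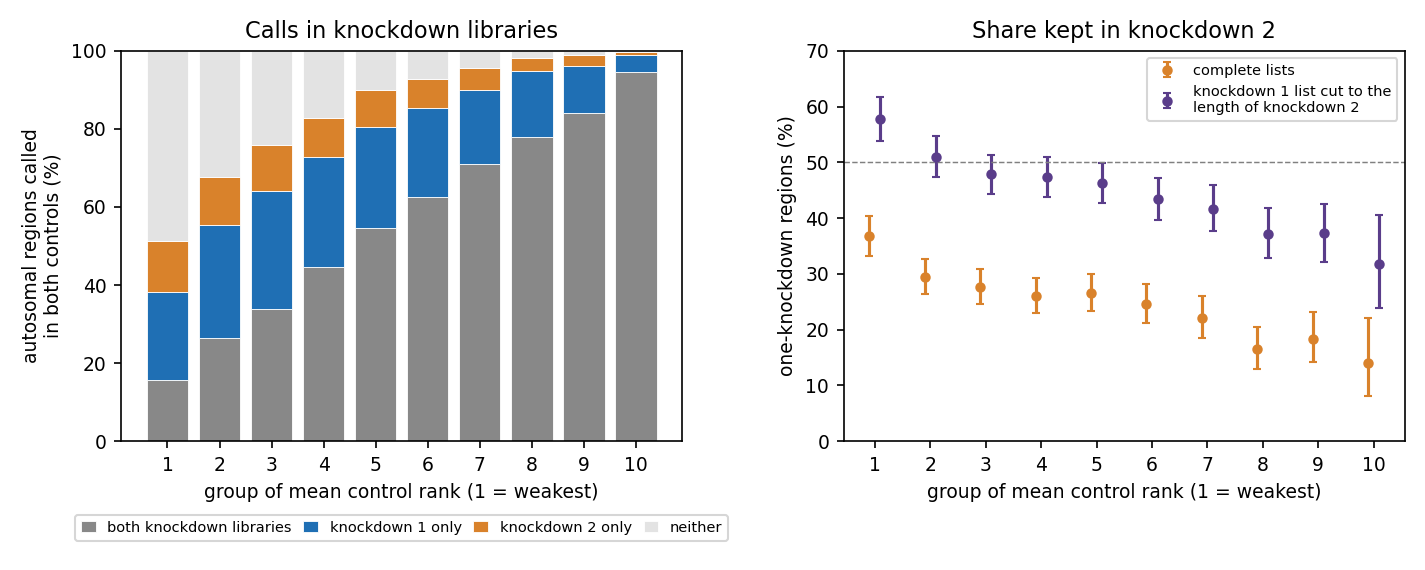
Left, share (%) of autosomal regions called in both controls that had a call in both knockdown libraries, in knockdown 1 only, in knockdown 2 only or in neither, over 10 groups of mean control rank (1 = weakest). Right, share (%) of one-knockdown regions kept in knockdown 2 in the same groups with exact 95% Clopper-Pearson intervals, for complete lists (36.8% in the weakest to 14.02% in the strongest group) and with the knockdown 1 list limited to 15309 peaks (57.8% to 31.8%). The dashed line marks equal numbers.

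Calls in the knockdown libraries went together at equal control rank. Of the control regions called in knockdown 2, 88.2% were called in knockdown 1 too, against 76.6% of regions without a knockdown 2 call weighted to the same control ranks. Of those called in knockdown 1, 72.8% were called in knockdown 2, against 51.8% of regions without a knockdown 1 call at the same ranks. In the weakest of the 10 groups these shares were 54.7% against 31.6% for knockdown 1 and 41.3% against 21.2% for knockdown 2. The one-knockdown regions are those where the calls of the knockdown libraries differed, 28.7% of the autosomal regions called in both controls.

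The knockdown 1-kept regions stood higher in the control lists than the knockdown 2-kept regions. Their median scores were 107.5 in control 1 and 101.4 in control 2, with a median mean control percentile of 46.9 (quartiles 30.9 and 63.6). The knockdown 2-kept regions had median scores of 97.1 and 93.1 and a median percentile of 40.2 (quartiles 25.9 and 56.9). Both sets lay between the regions called in both knockdown libraries, at a median percentile of 68.7, and those called in neither, at 28.0. The mean control score was at least 100 in 2403 of the 4278 knockdown 1-kept regions (56.2%) and in 707 of the 1534 knockdown 2-kept regions (46.1%). For the comparisons below, knockdown 1-kept regions were weighted to the distribution of the knockdown 2-kept regions over 20 bins of mean control rank, after which the mean ranks were 14053 and 14059.

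The 6 knockdown 1-kept regions with the highest mean control rank were strong control peaks. They scored from 74.53 to 215.2 in knockdown 1, where the lowest score was 50. The first was chr15:102501403-102502014, which is 612 bp long and scored 507.1 in control 1, 497.9 in control 2 and 215.2 in knockdown 1. It stood at rank 186 and 158 of the control lists and at percentile 97.4 of knockdown 1, while the nearest knockdown 2 peak was 70986 bp away. The next, chr13:58289602-58290382, scored 441.2 and 304.5 in the controls and 137.5 in knockdown 1, with the nearest knockdown 2 peak at 39011 bp. Both are thus placed high in 3 lists and absent from the fourth.

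The following members of this set were lower in their keeping list. The region chr11:116532163-116533184 scored 297.4 and 331.2 in the controls and 109.8 in knockdown 1, and the region chr3:54539049-54539552 scored 287.1, 327.4 and 120.7. The region chr2:30649870-30650899 had control scores of 412.2 and 267.3 and a knockdown 1 score of 81.45, at percentile 45.6. The region chr17:29073353-29073894 scored 296.5 and 265.8 in the controls and 74.53 in knockdown 1, at percentile 37.1. The latter pair were thus in the lower part of the knockdown 1 list although both were above percentile 96.8 in the mean of the controls. Both were chosen for a high control rank, which favours such a gap. The regions on chromosomes 11 and 2 are wide, at 1022 and 1030 bp.

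The strongest knockdown 2-kept regions began at lower control ranks. They were taken from 1534 regions against 4278 for the knockdown 1-kept set, and a larger set can reach higher ranks by its size alone. The first, chr17:45800006-45800756, scored 232.9 and 285.9 in the controls and 126.7 in knockdown 2, and the nearest knockdown 1 peak was 14295 bp away. The second, chr1:135203236-135204497, scored 242.9, 224.6 and 115.7 in control 1, control 2 and knockdown 2, and was 1262 bp wide. Those 2 regions stood at percentiles 86.6 and 81.7 of the knockdown 2 list. Given in the same way, chr7:25917935-25918524 scored 293.9, 203.6 and 73.25, and chr13:118100111-118100825 scored 211.4, 275.7 and 82.58. The last 2 were chr7:52391517-52392238 with 267.2, 191.6 and 98.81, and chr19:7309284-7309831 with 197.8, 227.4 and 62.99. The control libraries differed among these 6, with control 1 the higher score in 3 and control 2 in 3.

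**Figure D2:**
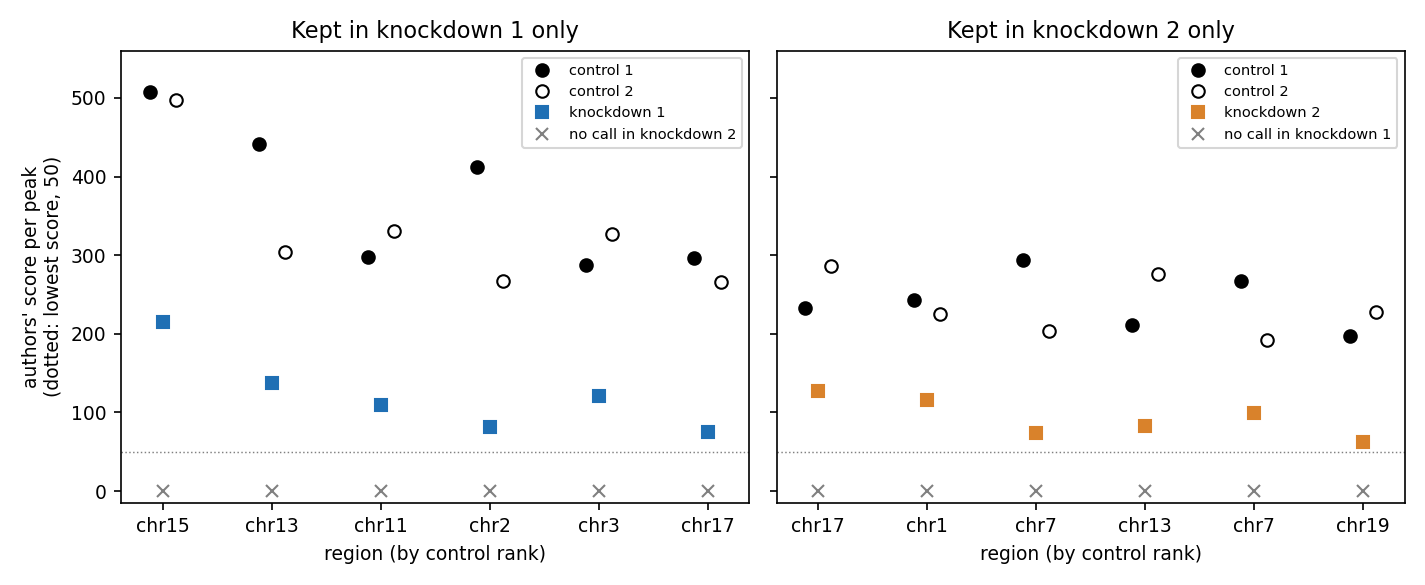
The authors' score per peak in each library for the 6 knockdown 1-kept (left) and the 6 knockdown 2-kept (right) regions with the highest mean control rank, labelled by chromosome. Circles are the controls, squares the keeping knockdown library, crosses at 0 mark the library without a call, and the dotted line is the lowest score of 50. Every keeping score is below both control scores, from 74.53 to 215.2 on the left and 62.99 to 126.7 on the right (the lists have separate score scales). The regions were chosen for a high control rank, which favours lower scores in another library.

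Members with the highest percentile in their knockdown list are given next. Among the knockdown 1-kept regions the highest was chr9:3029987-3030508, with scores of 174.6 and 291.7 in the controls and 314.3 in knockdown 1, where it had rank 171. The nearest knockdown 2 peak was 1246 bp from it. Next was chr7:107339095-107339714, with 228.9, 255.2 and 243.5 and a knockdown 2 peak at 2388 bp. These 2 therefore lay beside a call of the library that lacked them.

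The corresponding knockdown 2-kept regions were chr16:31724050-31724784, with control scores of 169.9 and 104.4 and 175.1 in knockdown 2, and chr13:104541324-104542010, with 133.2, 122.2 and 172.8. Their percentiles were 96.2 and 96.0 in knockdown 2 against 63.6 and 61.3 in the mean of the controls, and the nearest knockdown 1 peaks were 18366 and 28432 bp away. Both were chosen for a high knockdown 2 percentile, which favours such a gap, and percentiles of knockdown and control belong to lists of unlike length. Over all members, the kept peak had a higher percentile in its list than in the mean of the controls in 1697 of 4278 knockdown 1-kept (39.7%) and 644 of 1534 knockdown 2-kept regions (42.0%).

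Kept peaks were weaker in their list than the peaks of regions called in both knockdown libraries. In knockdown 1 the kept peaks had a median score of 75.8, at percentile 38.8, against 98.6 and percentile 63.1 for regions called in both. In knockdown 2 the medians were 68.7 and percentile 34.0, against 85.4 and percentile 57.9. Scores under 60 were found for 915 of the 4278 kept peaks in knockdown 1 (21.4%) and 458 of the 1534 in knockdown 2 (29.9%), against 8.79% and 13.5% of the regions called in both. At the other end, 891 kept peaks in knockdown 1 (20.8%) and 162 in knockdown 2 (10.6%) scored at least 100. Of the regions called in both, 48.5% reached that score in knockdown 1 and 34.6% in knockdown 2.

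The weaker keeping call was still present at equal control rank. Regions called in both knockdown libraries, weighted to the control ranks of the knockdown 1-kept regions, stood at a mean percentile of 48.6 in knockdown 1 against 40.8 for the knockdown 1-kept regions, a difference of 7.80 ± 0.498 points (SE over regions). In knockdown 2 the values were 43.8 and 37.0, a difference of 6.82 ± 0.733 points. Both differences use the knockdown calls that chose the members and are given as a description. Knockdown 1-kept and knockdown 2-kept peaks themselves differed by 1.48 ± 0.736 points in the percentile within their own lists at equal control rank. This small difference changed sign with the list length, being -2.33 points with the knockdown 1 list at the length of knockdown 2.

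Some members stood directly at the lowest score of the lists. Just inside, the lowest kept scores were 50.01 in knockdown 1, for regions chr2:119669136-119669753 and chr4:149146400-149147004. In knockdown 2 the lowest kept score was 50.02, for chr14:79506534-79507057 and chr3:68739287-68739925. Just outside were regions that a slightly lower score would have made members. One, chr11:96443169-96443781, had 52.84 in knockdown 1 and 50.02 in knockdown 2, and chr9:50969715-50970304 had 127.2 and 50.03. The region chr11:110398821-110399389 had 50 in knockdown 1 and 89.79 in knockdown 2, and chr9:98880023-98880682 had 50 and 81.23.

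A peak of the missing library that overlapped a region by 1 bp would have counted as a call, so only peaks outside the region are described here. The nearest peak of the library without a call was a median of 23294 bp away for knockdown 1-kept and 21488 bp for knockdown 2-kept regions. It lay within 500 bp for 68 of 4278 (1.59%) and 25 of 1534 regions (1.63%), and within 2000 bp for 7.83% and 8.67%. The centre of the kept peak was close to the mean centre of the control peaks, at a median distance of 34.5 bp in knockdown 1 and 45.5 bp in knockdown 2, where the centres of the 2 control peaks were a median of 47.0 and 46.5 bp apart. Merging by overlap placed each kept peak in the region of its control peaks, so closeness of the centres was largely set by the rule. These distances are also unlike, since that of a kept peak runs to the mean of 2 control centres. The largest distances of a kept peak from that mean were 1320 bp in knockdown 1 and 1018 bp in knockdown 2.

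Members of opposite sets could be direct neighbours. There were 42 pairs of a knockdown 1-kept and a knockdown 2-kept region within 2000 bp of each other. The number of all control region pairs within that distance is not given here, so this count cannot be read as high or low. The closest pair was on chromosome 7, where the knockdown 1-kept region chr7:137905452-137906047 was followed by the knockdown 2-kept region chr7:137906049-137906687. The former scored 57.33 and 79.73 in the controls and 139.1 in knockdown 1, and the latter 109.3 and 111.1 in the controls and 55.23 in knockdown 2. In the controls the second of these adjoining regions had the higher score in both libraries.

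A pair 144 bp apart lay on chromosome 9. The region chr9:64878943-64879639 scored 56.88, 77.65 and 94.33 in control 1, control 2 and knockdown 2, and chr9:64879783-64880412 scored 157.8, 96.78 and 63.8 in control 1, control 2 and knockdown 1. In a pair 291 bp apart, chr8:26685549-26686109 scored 125.9 and 80.09 in the controls and 108.1 in knockdown 2, and chr8:26686400-26686975 scored 94.17 and 74.1 in the controls and 94.44 in knockdown 1. In these 3 pairs both regions were called in both controls and each knockdown library had a call in a different one of them. The choice of the pairs required this. Pairs so close are sensitive to the merging distance: with peaks within 500 bp merged, the members numbered 5699.

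The width of the control peaks under the sets was compared first. At equal control rank the mean control peak width was 487 bp for knockdown 1-kept and 492 bp for knockdown 2-kept regions, a difference of -5.45 ± 3.15 bp (SE over regions) that is less than 2 times its error. It was larger than that in some alternatives, at -6.70 bp (-12.3 to -1.15) with the knockdown 1 list at the length of knockdown 2, -5.74 bp (-10.7 to -0.760) without regions over 1 kb and -8.05 bp (-15.6 to -0.520) with keeping scores of at least 60. It was -39.0 bp with a reciprocal overlap of 50% required for merging and 0.0667 bp without control 2. Kept peaks differed as the lists do. They had a median width of 313 bp in knockdown 1, 64.8% of the control width, and 427 bp in knockdown 2, 87.3% of it, while all peaks of the lists had medians of 328 and 446 bp. Regions called in both knockdown libraries had the same relation, with 65.0% and 86.2% of the control width. Regions over 1 kb were rare in both sets, with 41 of 4278 (0.958%) and 9 of 1534 (0.587%).

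**Figure D3:**
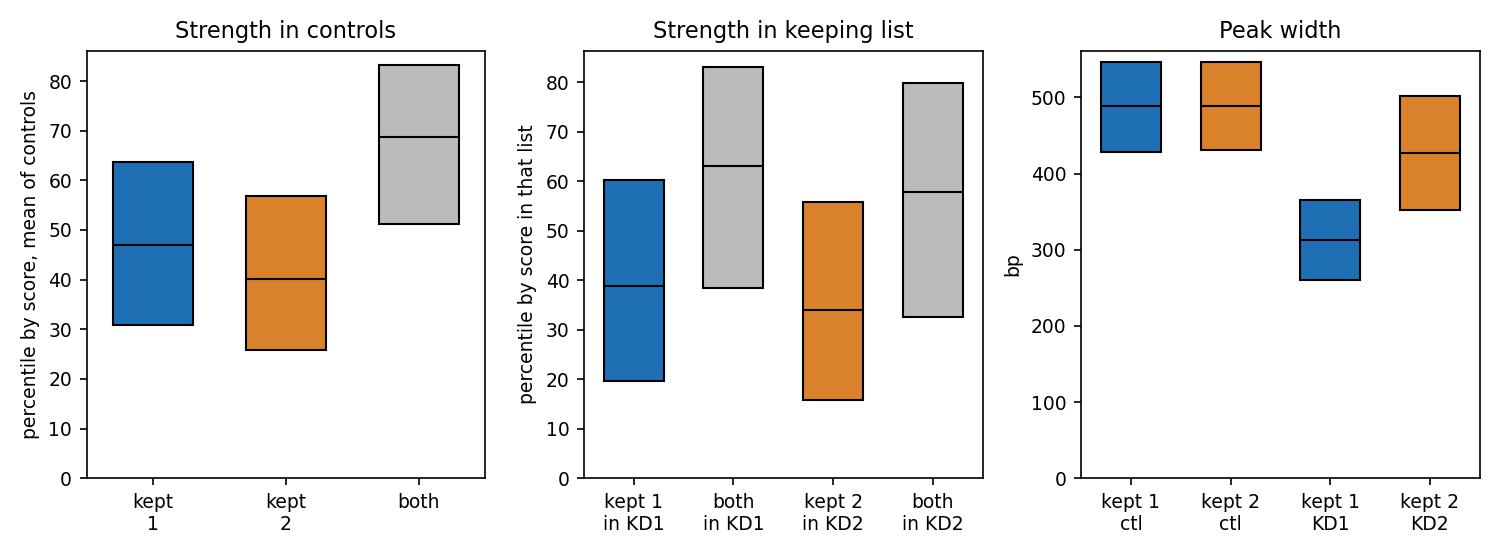
Medians (line) and quartiles (box) of the knockdown 1-kept (blue), knockdown 2-kept (orange) and both-knockdown (grey) regions. Left, mean control percentile by score (medians 46.9, 40.2 and 68.7); middle, percentile within the keeping list KD1 or KD2 (38.8 against 63.1, and 34.0 against 57.9); right, widths in bp of control (ctl) and kept peaks, which are near 488 bp in the controls and 313 and 427 bp in the knockdown lists.

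Local density differed between the sets at equal control rank. Knockdown 1-kept regions had a mean of 8.74 other autosomal control regions within 250 kb on either side and knockdown 2-kept regions 7.96, a difference of 0.785 ± 0.166 regions (SE over regions). The SEs on density treat regions as independent. Neighbouring members share much of their windows, so these SEs may be too small. With the knockdown 1 list at the length of knockdown 2 the difference was 0.821 regions. The direction was the same in 17 of 19 autosomes, with chromosomes 7 and 10 the exceptions at -0.558 and -0.0502 regions. The 17 include chromosomes 5 and 6, which were almost level at 0.0167 and 0.0133 regions. Autosomes share the same libraries and are not replicates. No other control region lay in this window for 108 knockdown 1-kept (2.52%) and 56 knockdown 2-kept regions (3.65%). Knockdown 2-kept regions had nearly the density of regions called in both knockdown libraries at the same rank (7.96 against 7.97), and knockdown 1-kept regions had a higher one (8.85 against 8.03).

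The difference came with the calls of knockdown 2. The share of members kept in knockdown 2 was 32.1% (29.2 to 35.0%) with 0 to 3 other control regions in the window, 28.0% with 4 to 6, 26.6% with 7 to 9, 23.4% with 10 to 13 and 21.8% (19.3 to 24.5%) with 14 or more. At equal control rank the ends of this series were 31.3% and 22.2%. Among all autosomal control regions at equal control rank, a knockdown 1 call was found in 77.6% of regions in the sparsest and 77.2% in the densest surroundings, while a knockdown 2 call was found in 68.0% and 59.6%. Knockdown 1 was thus level over local density and knockdown 2 was lower in dense surroundings. These shares use the knockdown calls that chose the members and are given as a description.

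The same order was seen at each strength. In the weakest of 3 equal groups of control regions, knockdown 2 had a call in 42.8% (40.2 to 45.4%) of the sparsest and 33.7% (30.8 to 36.7%) of the densest regions, and knockdown 1 in 53.4% and 53.7%. In the middle group the shares were 70.8% and 62.1% for knockdown 2 and 82.4% and 83.1% for knockdown 1. In the strongest they were 89.3% and 84.0% for knockdown 2 and 96.2% and 95.1% for knockdown 1. A difference of like size lay between the control replicates. Regions called in both knockdown libraries and in control 1 only (283) had 8.02 control regions around them and those in control 2 only (229) had 7.23, a difference of 0.785 ± 0.510 at equal knockdown rank. It is less than 2 times its error. By their labels the knockdown libraries are replicates of 1 condition too, so the density difference between the sets also lies between replicates.

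**Figure D4:**
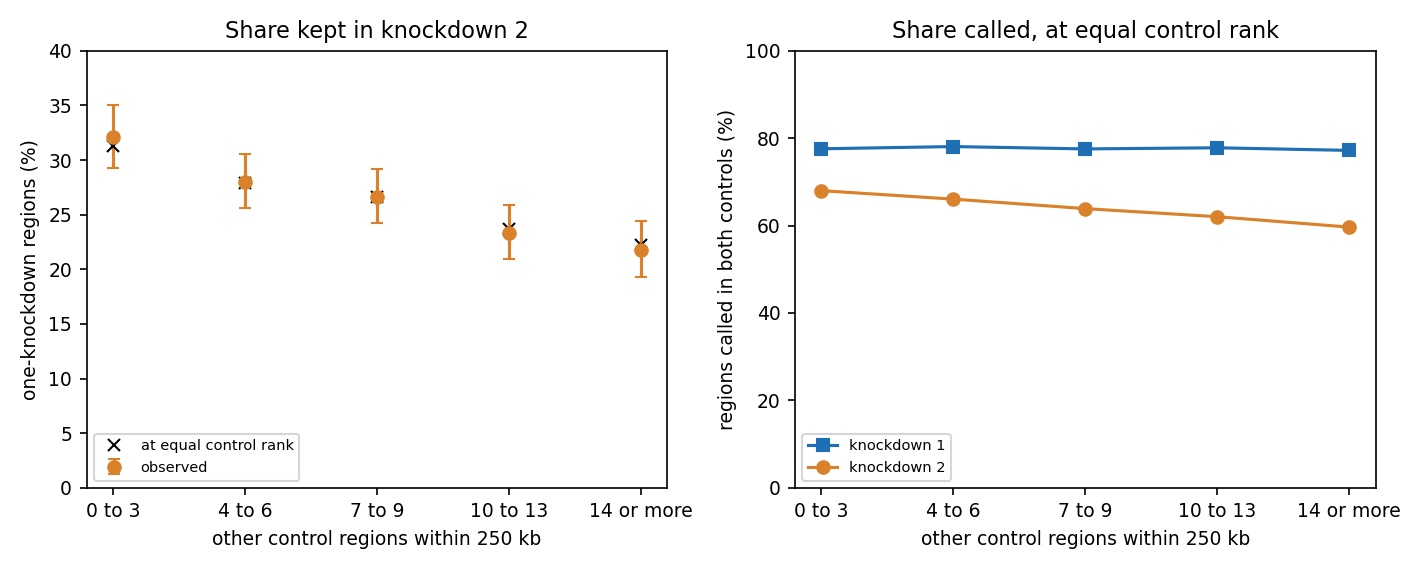
Left, share (%) of one-knockdown regions kept in knockdown 2 by the number of other control regions within 250 kb, observed with exact 95% Clopper-Pearson intervals (circles, 32.1% to 21.8%) and at equal control rank (crosses). Right, share (%) of all autosomal regions called in both controls with a call in knockdown 1 (squares, 77.6% to 77.2%) and in knockdown 2 (circles, 68.0% to 59.6%), both at equal control rank.

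On a coarser scale, chromosomes with denser control regions tended to have a lower share kept in knockdown 2. Chromosome 11, with a mean of 10.7 control regions in the window, had the lowest share of members kept in knockdown 2, with 99 of 454 (21.8%, 18.1 to 25.9%), against 26.0% from its control ranks alone. Chromosome 7, with a density of 10.3, had 98 of 431 (22.7%, 18.9 to 27.0%). The highest shares were 30.3% (23.7 to 37.7%) on chromosome 19 and 29.5% (23.6 to 36.1%) on chromosomes 13 and 16. Of these, chromosomes 13 and 16 were sparse, with 5.26 and 6.23 regions, and chromosome 19 was not, with 9.41. For 18 of 19 autosomes the interval included the share over all members, and chromosome 11 was the exception. Among 19 intervals at the 95% level, counting error alone gives about this number of exceptions. Across the 19 autosomes the share and the mean density had a Pearson r of -0.635 and a Spearman rho of -0.606. Chromosomes share the 4 libraries and are not replicates, so this is a description. Members as a share of control regions ranged from 24.5% on chromosome 14 to 32.0% on chromosome 18.

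**Figure D5:**
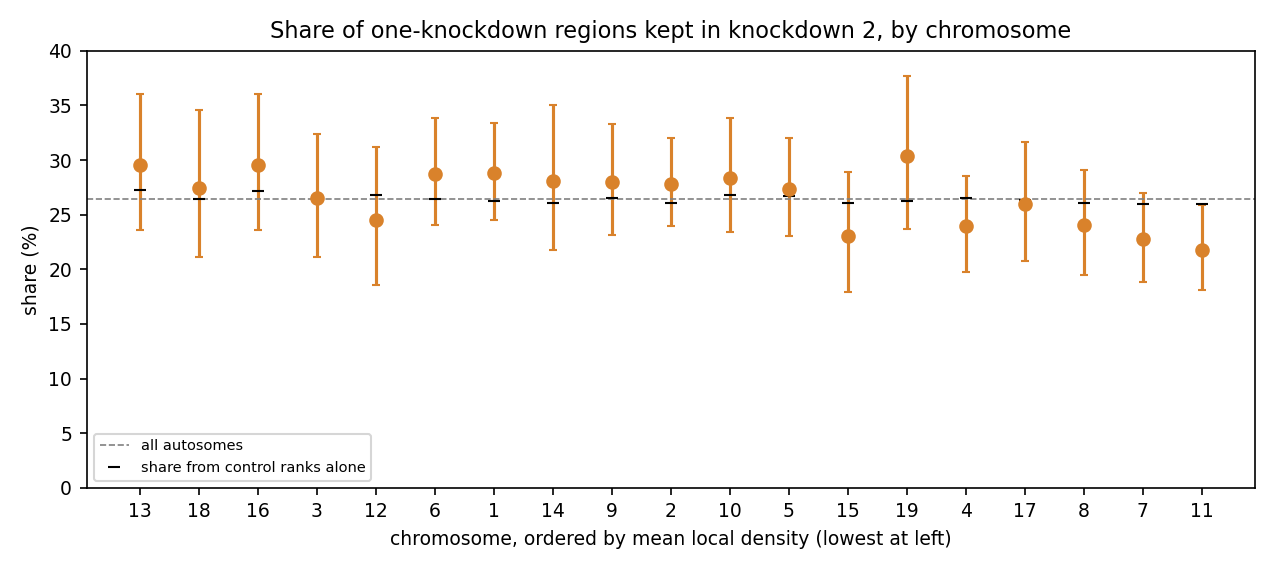
Share (%) of one-knockdown regions kept in knockdown 2 on each autosome with exact 95% Clopper-Pearson intervals, with chromosomes ordered by mean local density of control regions (sparsest at left). The dashed line is the share over all autosomes (26.4%) and black dashes are the share from control ranks alone; chromosomes 11 and 7, at the dense end, are lowest at 21.8% and 22.7%.

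The position along the chromosome and the neighbouring calls differed little between the sets. The share kept in knockdown 2 was 27.2% (24.99 to 29.4%) in the centromeric, 27.0% in the middle and 25.5% (23.8 to 27.2%) in the distal of 3 equal parts of the chromosomes. Of the directly adjacent control regions of a knockdown 1-kept region, 21.4% were knockdown 1-kept and 7.66% knockdown 2-kept. For a knockdown 2-kept region these shares were 21.4% and 7.31%, and for a region called in both knockdown libraries 21.0% and 7.41%. All are close to the 21.1% and 7.57% of all control regions, so members of one set were not found side by side more often than their numbers give.

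The 2 control libraries were compared in each set, since replicate numbers are shared by control and knockdown. The percentile in control 1 was higher than in control 2 for 2291 of 4278 knockdown 1-kept (53.6%) and 787 of 1534 knockdown 2-kept regions (51.3%). At equal mean control rank, the difference of control 1 minus control 2 was 1.70 points for knockdown 1-kept and 0.706 points for knockdown 2-kept regions. The difference between the sets, 0.992 ± 0.744 points (SE over regions), is less than 2 times its error. With the knockdown 1 list at the length of knockdown 2 it was 1.30 points with an interval of 0.00388 to 2.60, and it was positive in all 9 alternatives, from 0.845 to 2.02 points. Among these 9 alternatives the interval lay above 0 in that setting only.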

How the data were processed

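CTCF was measured by ChIP-seq in 4 libraries, and the authors deposited 1 peak list per library with a score per peak, which was taken to mean calling per library. BWA, HOMER and mm9 stand in the submitters' processing notes with neither version nor role, and the peak names contain the word MACS. Caller settings, use of an input library and depth: not given in the sources used here. Positions are printed as deposited.

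Peaks were merged at 1 bp overlap, the highest score per library was kept, and ranks were taken within each complete list. Comparisons at equal control rank used 20 bins, for chromosomes and density groups 5 or 20. The members, tests and measures were chosen with earlier results of these data known. Regions named are, per set, the 6 of highest mean control rank, the 2 of highest keeping percentile and the 2 of lowest keeping score, with 3 closest opposite pairs and regions just outside the threshold. The calculations of merging and weighting were checked on copies of the control 1 list with small shifts and random losses. Widths and scores were alike in those copies and loss did not depend on strength, unlike in the data. That check therefore covers the calculations only. Python 3.11.15, numpy 2.4.6, pandas 2.3.3, scipy 1.17.1 and matplotlib 3.10.9 were used. Alternatives covered overlap, score, list length, width, bins and each control left out.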

Additional observations from a re-analysis of the deposited data

How the results depend on the processing

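Of 82 values under alternatives, 63 stayed within 1.5 times the count or within the 95% interval reported. With a score of at least 100 in every list there were 3868 members, 2817 of them kept in knockdown 1, and the keeping-list percentile difference was 2.95 points. With every list at the length of the shortest there were 2921 members, 1720 kept in knockdown 1, a knockdown 2 share of 41.1% and a percentile difference of -2.17. With the knockdown 1 list at the length of knockdown 2, 2743 regions were kept in knockdown 2, the share was 46.2% and the percentile difference -2.33. By construction these settings rest on fewer peaks. With reciprocal overlap of 50% the share was 35.3%, the control width difference -39.0 bp and the percentile difference -0.159; the cause was not tested. With keeping scores of at least 60 the share was 24.2% and the percentile difference -0.918. Leaving out control replicate 1 or 2 gave shares of 28.0% and 27.4%. The local density difference kept its direction in 15 of 15 alternatives. Those chosen after seeing the data gave 0.359 regions within 100 kb, 2.43 within 1 Mb, 0.445 counting only regions called in all 4 libraries and 0.657 relative to the chromosome. Leaving out a knockdown library was not run, since the sets are then undefined. No paired analysis was possible because each set rests on 1 knockdown library, so the results come from no test over samples that could hold a replicate block.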

Other observations

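Outside the members, 1737 autosomal regions were called in exactly 1 control and exactly 1 knockdown library. Of the 948 called in control 1, 632 had their knockdown call in knockdown 1 and 316 in knockdown 2, a share of 33.3% (95% Clopper-Pearson interval 30.3 to 36.4%) for knockdown 2. Of the 789 called in control 2, 472 were in knockdown 1 and 317 in knockdown 2, a share of 40.2% (36.7 to 43.7%). Knockdown 1 thus held more of the calls in both groups, and the share for knockdown 2 was higher among the regions called in control 2. The groups were not matched on strength, and the difference in share was not tested over libraries. Whether a shared replicate number marks a shared batch is not given in the sources used here.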
